A study of Homo sapiens with 24 samples.

Results

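The ERVL repeat families were the 35 rows of the repeat-family table whose names begin with MLT2, LTR16, ERVL or HERVL, of 1180 rows in all. They comprised 12 MLT2 families, 13 LTR16 families and 10 internal families. Members were chosen by name alone, and all 35 had at least 10 scaled reads in at least 3 of the 12 libraries and entered the test. The libraries came from UCSD-AML1 and ELF-153, which are established human acute myeloid leukaemia lines. Each line was left untreated or given 100 nM decitabine (DAC), renewed every day together with the medium for 4 days, and was harvested at 96 h. Untreated and treated cells alike grew in RPMI with 20% fetal calf serum and 5 ng/ml GM-CSF, a myeloid growth factor. Every group held 3 libraries, and the submitters call these technical triplicates, so the p-values measure the spread between libraries, which may be technical. RNA was total RNA depleted of ribosomal RNA. Each line is a single cell line, so a difference between lines is a difference between these lines only.

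ERVL elements are old endogenous retroviruses. A complete copy has an internal part with the retroviral reading frames between a pair of long terminal repeats (LTRs), and recombination between the LTRs has left most copies as solitary LTRs. MLT2 families are LTRs of ERVL elements such as HERVL. LTR16 families are LTRs of an older ERVL group, and the names ending in int denote internal parts. MLT2A1 and HERVL are transcribed in the human embryo at the cleavage stages, when the transcription factor DUX4 binds their LTRs. In most somatic cells the elements are kept silent by histone methylation and, to a varying degree, by DNA methylation. Decitabine is a cytidine analogue. Once built into DNA it binds the methyltransferases covalently, and dividing cells then lose methylation. A row in the table adds up reads over the copies of a family, inside and outside genes. The rule for assigning reads that fit several copies was not given in the sources used here. Lengths and copy numbers were not used, so levels are compared only between libraries within a family and never between families.

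Reads in each library were recovered from the deposited values and divided by the size factor of that library in the matching transcript table, which gives the scaled reads used below. Libraries held 13.15 to 28.28 M reads over transcripts. Over all rows of the repeat-family table they held between 1.91 and 3.55 M reads, counting 7SK RNA. With 7SK left out, the repeat families held 1009190 to 2141572 reads, of which the ERVL families took 8595 to 26141. Shares of repeat-family reads below leave 7SK out. For UCSD-AML1 libraries, 7SK made up 20.3% to 33.9% of the reads over all rows. ELF-153 libraries had more of it, from 45.9% up to 60.7%. The leukocyte gene PTPRC, the myeloid gene CD33 and the progenitor genes KIT and CD34 had 131 or more scaled reads in every library, and the epithelial gene EPCAM was at 0. The myeloid gene MPO was at 0 or 1, and MECOM, a leukaemia-associated transcription factor gene, had 3927 to 4086 scaled reads in untreated UCSD-AML1 and 0 to 3 in untreated ELF-153. Mitochondrial ribosomal RNA took 49.3% to 51.3% of transcript reads in untreated and 61.7% to 63.8% in treated UCSD-AML1. In ELF-153 it took 13.1%, 35.0% and 27.4% in untreated and 37.3%, 49.8% and 43.2% in treated replicates 1, 2 and 3. Libraries of ELF-153 stood apart in the ERVL families as well. Untreated replicate 1 was the lowest of its group in 34 of 35 families and untreated replicate 2 the highest in 31. Treated replicate 2 was the highest of its group in 29. In UCSD-AML1 treated replicate 2 was the lowest of its group in 26. No share over all families is given, and these orders are not read as particular to the ERVL families. In ELF-153 the size factor of the transcript table over that of the repeat table had the same order. It was 0.62, 1.02 and 0.82 in untreated and 0.97, 1.57 and 1.07 in treated replicates 1, 2 and 3. Results for ELF-153 are therefore given with and without untreated replicates 1 and 2 and treated replicate 2.

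In UCSD-AML1 the ERVL families rose with DAC. By limma, 21 of 35 were higher at an adjusted p below 0.05 and none was lower, where 33.6% of the 1063 repeat families tested were higher and 2.07% lower. None of the 35 had a log2 change below 0, 25 had an unadjusted p below 0.05, and edgeR with the same scaling also called 21 higher and none lower. The median log2 change of the ERVL families was 0.80, beside 0.43 over all repeat families tested, and 30 of 35 lay above that median. In bulk RNA, more cells transcribing a family and more RNA per cell cannot be told apart. In 32 of 35 families every treated library was above every untreated one, which held for 52.3% of all families tested. No ERVL family had every treated library below every untreated one, beside 5.74% of all families. Summed over the 35 families, untreated libraries held 12842, 13338 and 13725 scaled reads and treated libraries 25713, 22003 and 24615. The groups did not overlap, and the treated mean was 1.81-fold higher (exact permutation test, two-sided, p = 0.1, the smallest that 3 against 3 libraries can give).

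**Figure D1:**
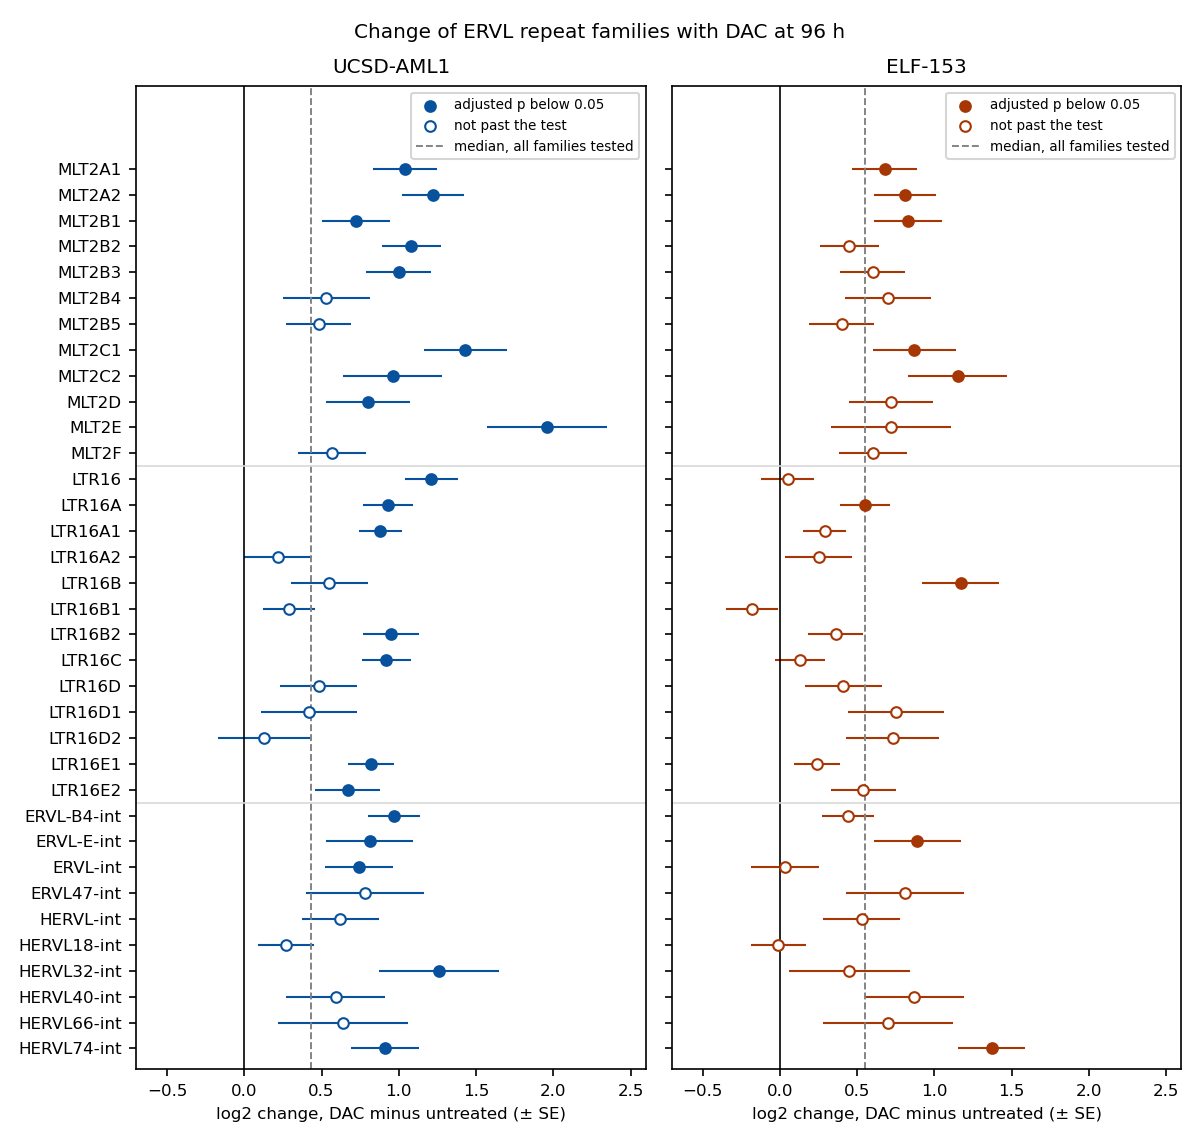
Log2 change with DAC at 96 h (x axis) for each of the 35 ERVL families (y axis), with UCSD-AML1 on the left and ELF-153 on the right. Points are limma estimates with bars of 1 standard error, filled where the adjusted p was below 0.05, and the dashed line is the median of all 1063 repeat families tested. In UCSD-AML1 30 of 35 points lie to the right of the dashed line, and in ELF-153 19 do.

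Of the MLT2 families 9 of 12 rose in UCSD-AML1 (75.0%, beside 33.6% of all families), with a median log2 change of 0.98. MLT2E had 7.34, 16.5 and 15.0 scaled reads in untreated and 52.1, 42.7 and 58.3 in treated libraries. The treated libraries were all far above the untreated ones, although the family had only 7 to 60 reads in any library. Its mean was 3.94-fold higher and its log2 change 1.96 ± 0.39 (SE, limma adjusted p = 0.00209, n = 3 against 3), the largest among the ERVL families in this line. MLT2C1 went from 576, 534 and 497 to 1458, 1199 and 1731 scaled reads. The lowest treated library held more than every untreated one, with a log2 change of 1.43 ± 0.27 (limma adjusted p = 0.00152). MLT2A2 had 602, 641 and 589 scaled reads in untreated and 1390, 1445 and 1447 in treated cells, so the treated libraries lay close together and well above the untreated ones. Its log2 change was 1.22 ± 0.20 (limma adjusted p = 0.0008). MLT2A1, the LTR known from the cleavage-stage embryo, had 394, 458 and 422 and then 901, 782 and 936 scaled reads, again without overlap, and a log2 change of 1.04 ± 0.21 (limma adjusted p = 0.00209). The other MLT2 families that rose were MLT2B1, MLT2B2, MLT2B3, MLT2C2 and MLT2D, with log2 changes from 0.72 to 1.08. MLT2B4, MLT2B5 and MLT2F had log2 changes of 0.53, 0.48 and 0.57 and did not pass the test, though every treated library was above every untreated one in all 12 MLT2 families.

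Of the LTR16 families 7 of 13 rose in UCSD-AML1 (53.8%, beside 33.6% of all families), with a median log2 change of 0.67. The family named LTR16 without a suffix had 232, 247 and 266 scaled reads in untreated and 618, 566 and 547 in treated libraries. Its treated libraries all held at least double the reads of the untreated ones, with a log2 change of 1.21 ± 0.17 (limma adjusted p = 0.000243). LTR16C, the LTR16 family with the most reads, went from 1165, 1160 and 1234 to 2389, 2137 and 2228 scaled reads. The groups were far apart, and the log2 change was 0.92 ± 0.16 (limma adjusted p = 0.000878). LTR16A, LTR16A1, LTR16B2, LTR16E1 and LTR16E2 also rose, with log2 changes from 0.67 to 0.95. The remaining 6 (LTR16A2, LTR16B, LTR16B1, LTR16D, LTR16D1 and LTR16D2) had log2 changes from 0.13 to 0.55 and did not pass the test. LTR16B1 had 445, 390 and 437 scaled reads in untreated and 601, 487 and 479 in treated cells. Its treated libraries lay above the untreated ones by a narrow margin (log2 change 0.29 ± 0.17, limma adjusted p = 0.191).

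Among the internal families 5 of 10 rose in UCSD-AML1. ERVL-B4-int went from 1344, 1463 and 1483 to 3024, 2686 and 2722 scaled reads. The groups did not overlap, and the log2 change was 0.97 ± 0.17 (limma adjusted p = 0.000878). ERVL-E-int went from 1233, 1226 and 1278 to 2422, 1804 and 2374 scaled reads, with treated replicate 2 the lowest of the treated libraries and still above the untreated ones (log2 change 0.81 ± 0.28, limma adjusted p = 0.041). ERVL-int had 221, 249 and 266 and then 479, 339 and 421 scaled reads, without overlap (0.74 ± 0.22, limma adjusted p = 0.0222). HERVL74-int had 83.9, 78.8 and 93.8 and then 184, 146 and 155 scaled reads, also without overlap (0.91 ± 0.22, limma adjusted p = 0.00675). HERVL32-int was the thinnest family, with 4.19, 10.1 and 6.31 scaled reads in untreated and 21.6, 13.5 and 16.5 in treated cells. Its groups did not overlap and its log2 change of 1.26 ± 0.39 passed the test (limma adjusted p = 0.0234) on 4 to 24 reads per library.

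Internal families that did not pass in UCSD-AML1 included HERVL-int itself. It had 1012, 1127 and 1172 scaled reads in untreated and 1886, 1617 and 1580 in treated libraries. Every treated library was above every untreated one, yet the log2 change of 0.62 ± 0.25 gave a limma adjusted p of 0.0683. HERVL40-int went from 478, 566 and 590 to 888, 744 and 828 scaled reads without overlap, and of the 10 ERVL families with the most reads it was the nearest to 0 (log2 change 0.59 ± 0.32, limma adjusted p = 0.181). HERVL18-int had 54.5, 55.9 and 49.7 and then 60.0, 66.3 and 67.0 scaled reads, which is the smallest change of the internal families (0.27 ± 0.18, limma adjusted p = 0.278). ERVL47-int had 11.5, 19.2 and 23.6 and then 41.3, 36.0 and 19.4 scaled reads. HERVL66-int had 25.2, 10.1 and 16.6 and then 31.5, 22.5 and 24.3. In both of these sparse families the groups overlapped, with limma adjusted p-values of 0.139 and 0.265.

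**Figure D2:**
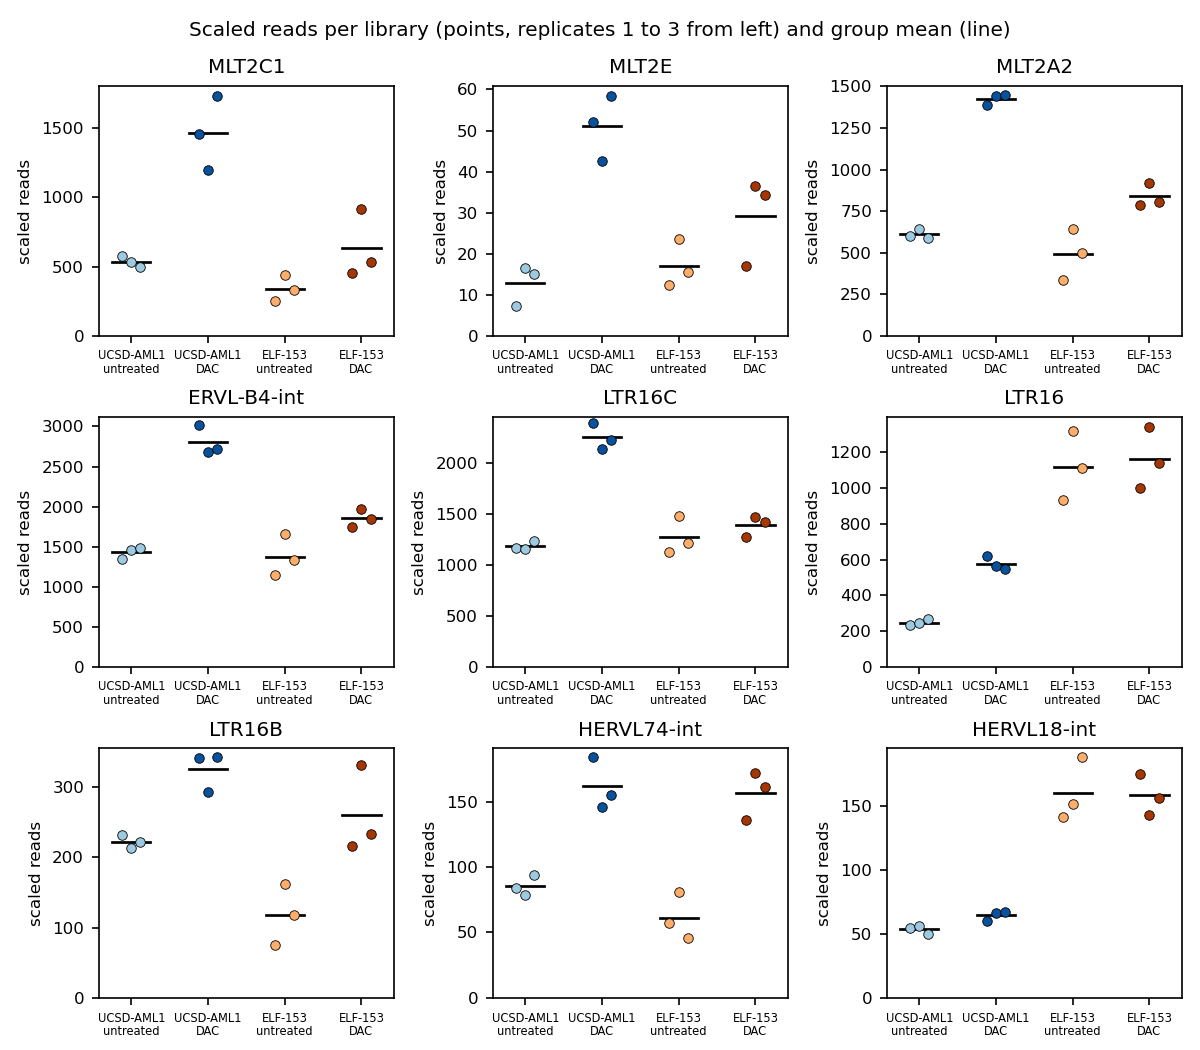
Scaled reads (y axis, linear from 0) of 9 ERVL families in each of the 12 libraries at 96 h, grouped by line and treatment on the x axis. Points are libraries and lines are group means. In UCSD-AML1 the treated libraries of all 9 families lie above the untreated ones, while in ELF-153 LTR16, LTR16C, HERVL18-int and MLT2E overlap between treated and untreated cells.

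How the libraries are scaled decides how many ERVL families pass in UCSD-AML1, but not the direction of the majority. The deposited repeat values are scaled on the repeat families themselves, which sets the median family close to 0 (0.01 in UCSD-AML1, against 0.43 by the transcript scaling). By that scaling, 14 ERVL families were higher and none lower, of 17.6% and 18.7% of all families, and the median of the ERVL families was 0.37. All 14 were among the 21 above, and limma with TMM scaling on the repeat families called the same 14 and 5 more. The 14 were 8 of 12 MLT2 families (66.7%), 4 of 13 LTR16 families (30.8%) and 2 of 10 internal families (20.0%). The internal share was near the 17.6% of all families. Over all repeat families the split was 357 higher and 22 lower by the transcript scaling and 187 higher and 199 lower by the deposited one. The share of repeat-family reads taken by the ERVL families, which needs no size factor, was 0.861%, 0.870% and 0.859% in untreated and 1.22%, 1.22% and 1.20% in treated libraries. The groups did not overlap and the share was 1.41-fold higher (exact permutation test, two-sided, p = 0.1). With the mitochondrial ribosomal RNA share as a covariate, 14 ERVL families were higher and none lower, beside 23.3% and 19.5% of all families. The mitochondrial share was higher in every treated UCSD-AML1 library than in any untreated one, so this fit cannot fully separate it from DAC. Leaving out 1 library at a time left 14 to 25 ERVL families higher, with 14 without untreated replicate 1, treated replicate 1 or treated replicate 3 of UCSD-AML1. ERVL-E-int, ERVL-int, HERVL32-int, LTR16E2, MLT2B1, MLT2C2 and MLT2D each lost the call without any of these 3 libraries, and the other 14 kept it in all 12 fits. The counts by TMM scaling and with 1 library left out carry no share over all families. They are not read as particular to the ERVL families.

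**Figure D3:**
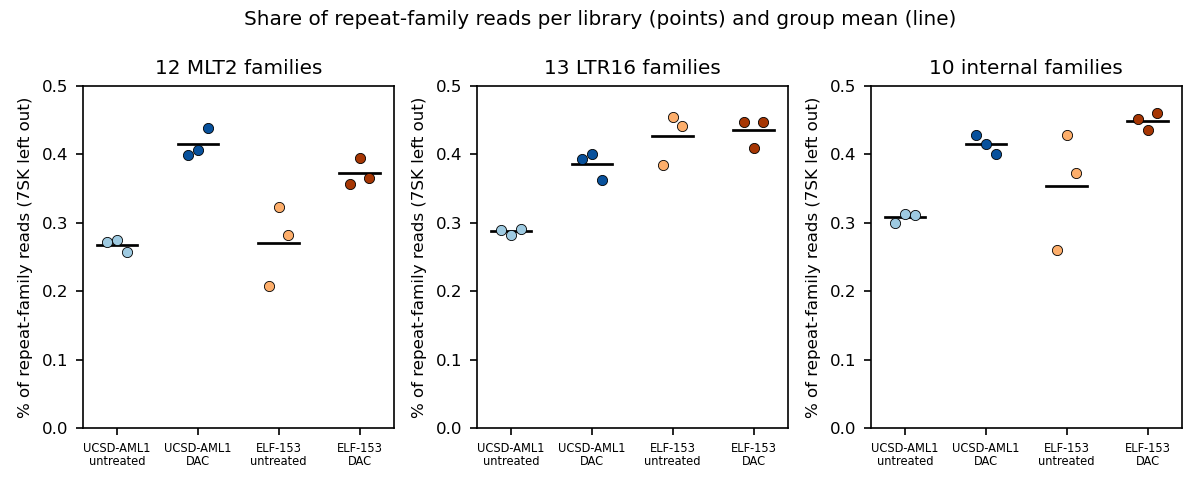
Share of repeat-family reads, in percent with 7SK RNA left out (y axis, from 0), taken by the MLT2, LTR16 and internal families in each library at 96 h. Points are libraries and lines are group means. Untreated ELF-153 libraries spread most, and the LTR16 shares of ELF-153 overlap between untreated (0.385% to 0.455%) and treated cells (0.409% to 0.448%).

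In ELF-153 fewer ERVL families rose with DAC, in a share near that of all repeat families. By limma 9 of 35 were higher and none lower, where 20.1% of all families were higher and 0.753% lower. The 20 with an unadjusted p below 0.05 all had log2 changes above 0, and edgeR with the same scaling called 8 higher and none lower. The median log2 change was 0.60, beside 0.55 over all families, and 19 of 35 lay above that median. In 15 of 35 families every treated library was above every untreated one, beside 31.2% of all families, and in none was the order reversed, beside 1.88%. The summed ERVL reads were 9628, 15977 and 12582 in untreated and 15700, 20812 and 16829 in treated libraries. Untreated replicate 2 exceeded treated replicate 1, so the groups overlapped, and the geometric means differed 1.42-fold (exact permutation test, two-sided, p = 0.2). As a share of repeat-family reads the ERVL families took 0.852%, 1.21% and 1.10% in untreated and 1.26%, 1.24% and 1.27% in treated cells, with untreated replicate 1 far below the other two. The groups did not overlap and the share was 1.21-fold higher (exact permutation test, two-sided, p = 0.1).

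Of the internal families 2 of 10 rose in ELF-153 (20.0%, beside 20.1% of all families), with a median log2 change of 0.62. HERVL74-int, with the largest rise of any ERVL family in this line, went from 57.1, 80.9 and 45.6 to 136, 172 and 161 scaled reads. Every treated library was well above every untreated one, and the mean was 2.56-fold higher with a log2 change of 1.37 ± 0.22 (limma adjusted p = 0.000785). ERVL-E-int went from 576, 1362 and 960 to 1408, 2247 and 1509 scaled reads. The lowest treated library only just exceeded untreated replicate 2, with a log2 change of 0.89 ± 0.28 (limma adjusted p = 0.0438). The other 8 internal families did not pass. ERVL-B4-int had 1147, 1654 and 1328 and then 1741, 1974 and 1845 scaled reads, without overlap but with a limma adjusted p of 0.0707. HERVL-int had 610, 1351 and 1040 and then 1238, 1558 and 1353, with untreated replicate 2 inside the treated range. HERVL40-int had 223, 733 and 467 and then 677, 890 and 776, where untreated replicate 2 again lay inside the treated range.

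ERVL-int and HERVL18-int were the internal families nearest to no change in ELF-153. ERVL-int had 150, 274 and 192 scaled reads in untreated and 185, 239 and 190 in treated libraries. The groups overlapped fully (log2 change 0.03 ± 0.22, limma adjusted p = 0.923), and by the deposited scaling the family was lower, by -0.52 ± 0.13 (limma adjusted p = 0.0136). For HERVL18-int the libraries held 141, 151 and 188 and then 175, 143 and 156 scaled reads, also with full overlap (-0.01 ± 0.18, limma adjusted p = 0.964). The 3 sparse internal families did not pass either. ERVL47-int had 11.2, 20.5 and 21.9 and then 23.7, 33.1 and 37.2 scaled reads. HERVL32-int had 10.1, 12.3 and 17.3 and then 22.7, 20.1 and 12.7. HERVL66-int had 12.3, 42.0 and 22.8 and then 42.6, 35.8 and 35.2. Of the 3, ERVL47-int alone had no overlap between its groups.

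Of the MLT2 families 5 of 12 rose in ELF-153 (41.7%, beside 20.1% of all families). They were MLT2A1, MLT2A2, MLT2B1, MLT2C1 and MLT2C2, with log2 changes from 0.68 to 1.15. MLT2C2 went from 31.4, 51.2 and 43.7 to 59.7, 156 and 86.1 scaled reads. Treated replicate 2 was far above the other treated libraries, and the log2 change was 1.15 ± 0.32 (limma adjusted p = 0.0258). MLT2A2 went from 337, 640 and 500 to 788, 922 and 808 scaled reads, without overlap (0.81 ± 0.20, limma adjusted p = 0.0162). MLT2C1 went from 251, 438 and 334 to 456, 914 and 535 scaled reads, with untreated replicate 2 just below treated replicate 1 (0.87 ± 0.27, limma adjusted p = 0.0401). MLT2E, the largest rise in UCSD-AML1, had 12.3, 23.6 and 15.5 and then 17.0, 36.6 and 34.2 scaled reads here. Its groups overlapped (0.72 ± 0.39, limma adjusted p = 0.153). The 7 MLT2 families that did not pass had log2 changes from 0.40 to 0.72.

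Of the LTR16 families 2 of 13 rose in ELF-153 (15.4%, beside 20.1% of all families), and the median log2 change of the LTR16 families was 0.36, below the 0.55 over all families. LTR16B went from 75.0, 162 and 118 to 216, 331 and 233 scaled reads. Its groups did not overlap, with a log2 change of 1.17 ± 0.25 (limma adjusted p = 0.00755). LTR16A had 491, 674 and 595 and then 817, 928 and 822 scaled reads, also without overlap (0.55 ± 0.16, limma adjusted p = 0.0293). LTR16C, by contrast, had 1125, 1481 and 1216 and then 1271, 1470 and 1422 scaled reads, with untreated replicate 2 above every treated library (0.13 ± 0.16, limma adjusted p = 0.501). The LTR16 family without a suffix had 931, 1318 and 1112 and then 998, 1342 and 1140 scaled reads. The groups overlapped almost completely, and of the 10 ERVL families with the most reads it was the nearest to 0 (0.05 ± 0.17, limma adjusted p = 0.808). LTR16B1 had 319, 371 and 327 and then 262, 356 and 287 scaled reads, the only LTR16 family with a log2 change below 0 (-0.18 ± 0.17, limma adjusted p = 0.383). By the deposited scaling LTR16 and LTR16B1 were lower with DAC, by -0.49 ± 0.13 (limma adjusted p = 0.017) and -0.72 ± 0.15 (limma adjusted p = 0.00519).

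The count in ELF-153 depended on single libraries and on scaling. It was 3 without untreated replicate 1, 3 without untreated replicate 3, 3 without treated replicate 2, 4 without treated replicate 3 and 22 without untreated replicate 2. It also fell to 5 without untreated replicate 2 of UCSD-AML1, and it was 2 without untreated replicate 1 and treated replicate 2 of ELF-153 together. With a block for replicate number it was 21, and whether these numbers pair the ELF-153 libraries is undecided. The counts of these fits are given without a share over all families and are not read as particular to the ERVL families. HERVL74-int, LTR16B and MLT2A2 passed in each of the 12 fits that left out 1 library, and the other 6 did not. By the deposited scaling HERVL74-int and LTR16B were higher and ERVL-int, LTR16 and LTR16B1 lower, of 8.65% higher and 6.68% lower over all families. With the mitochondrial ribosomal RNA share as a covariate HERVL74-int alone was higher (1 of 35, beside 5.27% of all families), and ERVL-E-int turned to -0.15. The mitochondrial share was higher in every treated ELF-153 library than in any untreated one, so this fit cannot fully separate it from DAC. HERVL74-int was the 1 ERVL family that passed under all 25 alternatives tried.

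**Figure D4:**
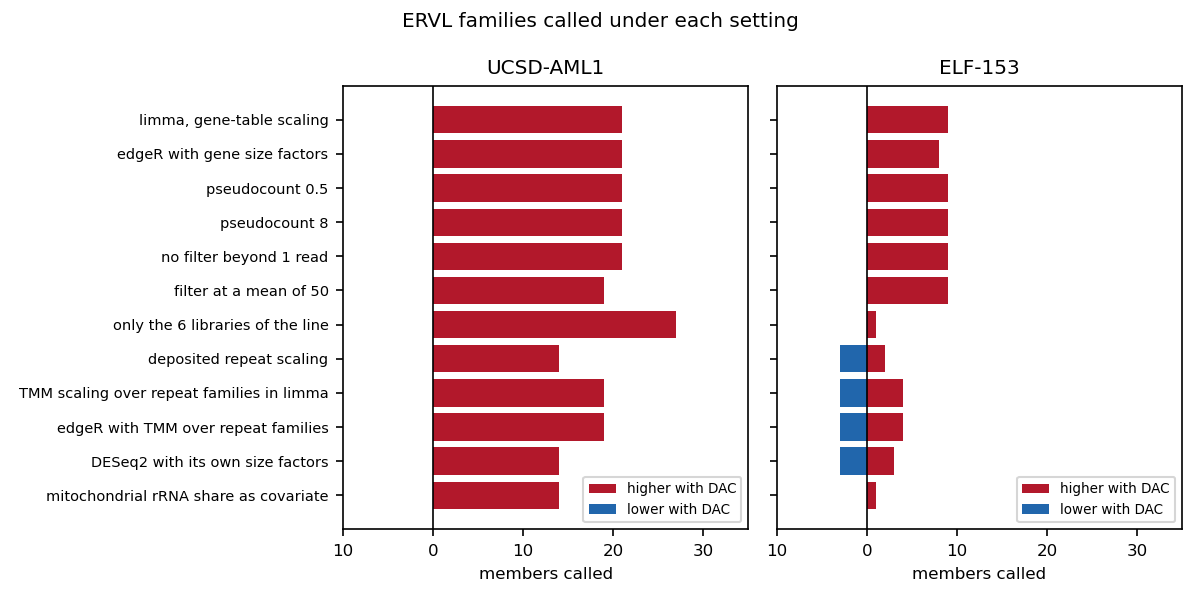
Number of ERVL families, of 35, higher (red, to the right of 0) or lower (blue, to the left) with DAC at 96 h under each of 12 settings on the y axis, UCSD-AML1 on the left and ELF-153 on the right. In UCSD-AML1 14 to 27 families were higher and none lower under every setting drawn, while in ELF-153 the number higher ran from 1 to 9 and 3 were lower under the 4 settings scaled on the repeat families. Fits with a replicate block (27 higher in UCSD-AML1 and 21 in ELF-153) or with libraries left out are not drawn. Counts are shown without the share over all repeat families.

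The difference between the lines in the DAC effect was tested directly. By limma 1 of 35 ERVL families differed, LTR16, and none had a larger effect in ELF-153, where 3.39% of all families had a smaller and 1.41% a larger effect in ELF-153. Over the ERVL families 9 had an unadjusted p below 0.05, and edgeR with the same scaling called LTR16 as well. LTR16 reads more than doubled with DAC in UCSD-AML1 and lay within the untreated range in 2 of 3 treated ELF-153 libraries, a difference of -1.16 ± 0.25 on the log2 scale (limma adjusted p = 0.0186). The call was lost without untreated replicate 1 of UCSD-AML1 (limma adjusted p = 0.0677), untreated replicate 2 (0.0607), treated replicate 1 (0.0629) or treated replicate 3 of ELF-153 (0.0592). The difference itself was -1.11, -1.16, -1.11 and -1.15 in these 4 fits. By the deposited scaling 10 families had a smaller effect in ELF-153 and none a larger one (9.22% and 11.3% of all families). They were LTR16, LTR16B2, LTR16C, LTR16E1, MLT2B2, MLT2B3, MLT2C1, MLT2E, ERVL-B4-int and ERVL-int, with differences from -1.35 to -0.52. With the mitochondrial ribosomal RNA share as a covariate it was 15 families, beside 16.7% of all. HERVL74-int and LTR16B, the largest rises in ELF-153, differed by 0.46 ± 0.31 and 0.62 ± 0.36 (limma adjusted p = 0.393 and 0.332).

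Before treatment, 8 of 35 ERVL families differed between the lines. By limma 4 of 35 were higher and 4 lower in untreated ELF-153 than in untreated UCSD-AML1, where 8.28% of all repeat families were higher and 43.4% lower. The median log2 difference was -0.10, beside -0.54 over all families, and 31 of 35 lay above that median. In 4 families every ELF-153 library was above every UCSD-AML1 library and in 5 below, beside 10.8% and 51.1% of all families. Summed over the 35 families, the range of untreated UCSD-AML1 (12842 to 13725 scaled reads) lay inside that of untreated ELF-153 (9628 to 15977; exact permutation test, two-sided, p = 0.7). By TMM scaling on the repeat families the sums were 13040, 13102 and 12955 in UCSD-AML1 and 18011, 18704 and 18297 in ELF-153, without overlap and 1.41-fold higher in ELF-153. By the deposited scaling ELF-153 was 0.98-fold of UCSD-AML1, also without overlap (exact permutation test, two-sided, p = 0.1 for each).

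LTR16 showed the largest difference, with 232, 247 and 266 scaled reads in untreated UCSD-AML1 and 931, 1318 and 1112 in untreated ELF-153. Its mean was 4.51-fold higher in ELF-153 (log2 difference 2.16 ± 0.17, limma adjusted p = 2.86e-06). Ranked by signed difference, from highest to lowest in ELF-153, it was 9th of 1063 families. It made up 5.36% to 5.73% of the reads of all LTR16 families in untreated UCSD-AML1 and 21.4% to 22.0% in untreated ELF-153. With DAC these shares were 7.35% to 7.87% and 17.8% to 19.5%. HERVL18-int followed, with 54.5, 55.9 and 49.7 scaled reads in UCSD-AML1 and 141, 151 and 188 in ELF-153. The ELF-153 libraries were all far above, by a log2 difference of 1.56 ± 0.18 (limma adjusted p = 4.79e-05). MLT2B5 had 26.2, 34.8 and 32.3 scaled reads in UCSD-AML1 and 49.3, 53.3 and 52.9 in ELF-153, without overlap (0.73 ± 0.21, limma adjusted p = 0.0124). MLT2B2 had a log2 difference of 0.70 ± 0.19 (limma adjusted p = 0.0105).

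The lower families were MLT2D, LTR16B, MLT2C1 and MLT2B1. MLT2D had 581, 589 and 607 scaled reads in untreated UCSD-AML1 and 201, 414 and 297 in untreated ELF-153. All ELF-153 libraries were lower, with replicate 1 the lowest (log2 difference -1.02 ± 0.27, limma adjusted p = 0.00841). LTR16B had 231, 213 and 222 and then 75.0, 162 and 118 scaled reads, also without overlap (-0.97 ± 0.25, limma adjusted p = 0.00834). MLT2C1 had 576, 534 and 497 and then 251, 438 and 334, without overlap (-0.68 ± 0.27, limma adjusted p = 0.0477), and MLT2B1 had a log2 difference of -0.61 ± 0.22 (limma adjusted p = 0.0343). LTR16, HERVL18-int and MLT2B2 were higher in ELF-153 under every alternative tried. The 4 lower families turned to between 0.25 and 0.49 with the mitochondrial ribosomal RNA share as a covariate, where 10 ERVL families were higher and 0 lower (17.8% and 2.73% of all families). That share is lower in every untreated ELF-153 library than in any of UCSD-AML1. Without untreated replicate 2 of ELF-153, 12 families were lower. By the deposited scaling 6 were higher and 7 lower, beside 10.5% and 51.5% of all families, and with TMM scaling on the repeat families 18 were higher and 2 lower. The TMM counts and the count without untreated replicate 2 are given without a share over all families. They are not read as particular to the ERVL families.

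**Figure D5:**
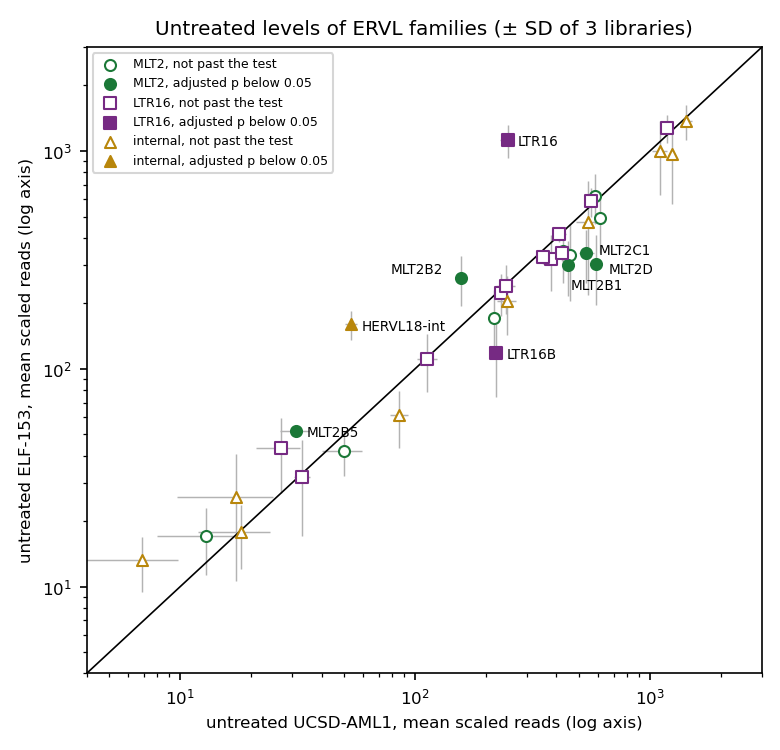
Mean scaled reads of the 35 ERVL families in untreated UCSD-AML1 (x axis) and untreated ELF-153 (y axis), both on log axes, with bars of 1 SD over 3 libraries. Filled symbols passed the limma test at an adjusted p below 0.05 and are named, and the diagonal marks equal levels. LTR16 and HERVL18-int lie farthest above the diagonal, and MLT2D and LTR16B farthest below it.

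Related repeat families outside the 35 were described from lists by name. LTRs that share a number with an internal family of the 35 (LTR18, LTR32, LTR40, LTR47 and LTR66) counted 15 rows. In UCSD-AML1 6 of them (40.0%, beside 33.6% of all families) were higher and 1 lower with DAC, with a median log2 change of 0.83. In ELF-153 1 (6.7%, beside 20.1%) was higher and none lower, with a median of 0.20. That 1 was LTR66, which also rose in UCSD-AML1. It had 34.6, 32.1 and 23.6 and then 80.7, 98.9 and 83.5 scaled reads in UCSD-AML1, and 26.9, 49.2 and 30.1 and then 79.6, 89.0 and 70.4 in ELF-153. Treated and untreated libraries did not overlap in either line (log2 change 1.52 ± 0.26 and 1.19 ± 0.26, limma adjusted p = 0.0008 and 0.00697), whereas the internal HERVL66-int passed in neither. The 1 lower row was LTR47A2 in UCSD-AML1, from 288, 269 and 307 to 105, 80.9 and 136 scaled reads (-1.44 ± 0.51, limma adjusted p = 0.0426). LTR18B, like HERVL18-int, was higher in untreated ELF-153 (177, 272 and 201 scaled reads) than in untreated UCSD-AML1 (76.5, 91.7 and 81.2), by 1.35 ± 0.20 (limma adjusted p = 0.000344). The ERVL-MaLR families (MLT1, MST and THE1), a related group of LTR elements without retroviral genes of their own, had 76 of 83 rows tested. In UCSD-AML1 43 (56.6%, beside 33.6% of all families) were higher and none lower, with a median of 0.65. In ELF-153 18 (23.7%, beside 20.1%) were higher and none lower, and their median of 0.55 equalled that of all families. By the deposited scaling 17 of the ERVL-MaLR families (22.4%, beside 17.6%) were higher in UCSD-AML1 and 1 (1.3%, beside 18.7%) lower. In ELF-153 7 (9.2%, beside 8.65%) were higher and 2 (2.6%, beside 6.68%) lower. Of the 15 number-sharing LTRs, 4 (26.7%) were higher and 2 (13.3%) lower by that scaling in UCSD-AML1. None was higher and 3 (20.0%) were lower in ELF-153.

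Most genes listed as DUX4 targets or cleavage-stage genes had few reads in both lines. Of 27 listed genes 25 matched a row by name. Of these, 20 stayed below 10 scaled reads in every library, 8 of them at 0, and 4 entered the test over 17609 genes. By limma 20% of all genes were higher and 20.1% lower with DAC in UCSD-AML1, and 20.7% and 12.9% in ELF-153. Of the 4, 2 were higher and 1 lower in UCSD-AML1, and 1 was higher and none lower in ELF-153. ZSCAN4 and SLC34A2 reached 10 scaled reads in treated libraries only, so they entered the test through the group where they were high. The number of rises among the 4 genes is therefore partly set by the filter.

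ZSCAN4, a DUX4 target that marks the cleavage stage, had 1.05, 0 and 1.58 scaled reads in UCSD-AML1 without DAC and 21.6, 38.2 and 49.5 with it. In ELF-153 it had 0, 0 and 4.56 and then 74.8, 54.1 and 53.8 scaled reads. Treated libraries of both lines were far above the untreated ones, which held 3 reads in all in UCSD-AML1 and 5 in ELF-153. The ratio was 40.3 in UCSD-AML1 (exact 95% interval 13.4 to 198, counting error only) and 36.1 in ELF-153 (15.2 to 112), with limma adjusted p-values of 0.000118 and 3.26e-05. SLC34A2, a phosphate transporter induced by DUX4, had 4.19, 0 and 0 scaled reads in UCSD-AML1 without DAC and 56.1, 11.2 and 20.4 with it (limma adjusted p = 0.000603). In ELF-153 it stayed at or below 0.947. HNRNPCL1, which has near-identical copies between which reads may be split, was lower in UCSD-AML1, from 91.2, 68.7 and 62.3 to 31.5, 46.1 and 26.2 scaled reads (limma adjusted p = 0.0113). CCNA1, a germ-line cyclin, had 23.1, 37.6 and 28.4 and then 0, 14.6 and 9.71 in UCSD-AML1, and 0 in untreated ELF-153 with 0, 10.5 and 18.6 after DAC, and passed in neither line.

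Genes of the chromatin machinery that silences ERVL elements were lower with DAC more often than higher. Of 23 listed genes 22 were tested. In UCSD-AML1 1 was higher and 13 lower, where 20% of all genes were higher and 20.1% lower. The median log2 change was -1.04, beside -0.03 over all genes. In ELF-153 1 was higher and 9 lower, where 20.7% of all genes were higher and 12.9% lower. The median there was -0.62, beside 0.17. HELLS, a remodeller needed for DNA methylation at repeats, had 912, 857 and 929 scaled reads in UCSD-AML1 without DAC and 39.3, 20.2 and 36.9 with it. The ELF-153 libraries held 440, 589 and 498 and then 119, 231 and 127. It fell in both lines, by -4.82 ± 0.28 and -1.73 ± 0.28 on the log2 scale (limma adjusted p = 3.99e-08 and 0.000319). CHAF1A and CHAF1B, subunits of the histone chaperone CAF-1, which deposits histones behind replication forks, fell as well. For CHAF1B the log2 change was -3.77 ± 0.20 in UCSD-AML1 and -2.35 ± 0.20 in ELF-153, and for CHAF1A -2.01 ± 0.22 and -1.94 ± 0.22. SUV39H1, a histone H3 lysine methyltransferase, went from 434, 382 and 391 to 128, 106 and 92.3 scaled reads in UCSD-AML1 and from 1320, 775 and 882 to 179, 174 and 206 in ELF-153. No treated library reached any untreated one in either line (log2 change -1.89 ± 0.21 and -2.37 ± 0.21). The gene higher in UCSD-AML1 was MORC2 (0.80 ± 0.28, limma adjusted p = 0.0388). The gene called higher in ELF-153 was CBX1, at 0 in every untreated library and at 2.94 scaled reads or fewer in each treated one, too few to read a change from.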

How the data were processed

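Total RNA libraries of 2 cell lines at 96 h were analysed, 12 of the 24 in the series. The 144 h libraries were not used here. Deposited signal values are read counts per repeat family or transcript divided by one size factor per library, as the values themselves show: 100% of non-zero values were whole multiples, within 0.01, of the value of 1 read. Per the submitters' processing notes, the genome build was hg19 and the tools included STAR, TopHat2, HTSeq, FastQC and DESeq2, with no roles given. Transcripts were summed to GENCODE 29 gene names (181859 of 204940 matched, with 97.8% of the values). Repeat reads were scaled by the transcript table's size factors, log2(value + 1) was tested with limma 3.58.1 (4 group means over 12 libraries, trended robust eBayes, at least 10 in at least 3 libraries, 7SK row left out), and p-values were Benjamini-Hochberg adjusted over all 1063 families. Fold changes on this scale understate those of low families. Alternatives used edgeR 4.0.16 and DESeq2 1.42.0 on the recovered reads, other scalings, pseudocounts and filters, a replicate block and each library left out. Summed reads and shares were compared by exact permutation, and their folds are ratios of geometric means. Folds of single families are ratios of arithmetic means. Replicate pairs differed by more than sampling noise. Named families were the 3 largest changes each way per contrast among those that passed, the 3 with the most reads, all internal families and the nearest to 0 in each line among the 10 with the most reads; up to 4 genes per list were named by adjusted p; LTR66, LTR47A2, LTR18B, MLT2A1, MLT2A2, LTR16A, LTR16B1 and the cell markers were chosen after their values were seen. Members and lists were chosen with earlier results of these data known.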

Additional observations from a re-analysis of the deposited data

Results flagged for a closer look

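LTR16 was singled out because its DAC effect differed between the lines by a direct test. The effect in ELF-153 minus that in UCSD-AML1 was -1.16 ± 0.25 on the log2 scale (limma adjusted p = 0.0186). Over 24 alternatives the difference ran from -1.40 to -1.03 with adjusted p-values from 6.12e-08 to 0.0677, and 20 of the 24 passed. The 4 that did not each left out 1 library: untreated replicate 1, untreated replicate 2 or treated replicate 1 of UCSD-AML1, or treated replicate 3 of ELF-153.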

How the results depend on the processing

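Counts of ERVL families are of 35 and are given here without the share over all repeat families. In UCSD-AML1 none was lower under any alternative, and 14 to 27 were higher; leaving out 1 library at a time gave 14 to 25. In ELF-153 the number higher with DAC was 2 by the deposited scaling, 4 by TMM in limma and in edgeR, 3 by DESeq2, 1 with only the 6 libraries of the line, 1 with the mitochondrial share as covariate and 2 with 2 libraries left out together (chosen after seeing the data), and 3 to 22 without 1 library; 3 were lower by the deposited scaling, TMM (limma, edgeR) and DESeq2. Between untreated lines, 18 were higher and 2 lower by TMM (limma, edgeR) and DESeq2, 10 higher and 0 lower with the mitochondrial covariate, and 7 lower by the deposited scaling; without 1 library 3 to 5 were higher and 2 to 12 lower. A smaller DAC effect in ELF-153 was called for 10 (deposited scaling, TMM in limma and edgeR), 11 (DESeq2), 15 (mitochondrial covariate), 11 (2 libraries left out together) and 0 to 2 without 1 library. Under the mitochondrial covariate ERVL-E-int in ELF-153 turned to -0.15, and between untreated lines LTR16B turned to 0.27, MLT2B1 to 0.38, MLT2C1 to 0.49 and MLT2D to 0.25. The log2 ratio of summed reads was 0.42 (deposited), 0.48 (TMM) and 0.49 (percent of repeat-family reads) in UCSD-AML1, and -0.05 (deposited), 0.00 (TMM) and 0.27 (percent of repeat-family reads) in ELF-153; without 1 library it was 0.81 to 0.92 and 0.32 to 0.68. Without a filter 4 cleavage-stage genes were higher in UCSD-AML1 and 2 in ELF-153. The causes were not tested, apart from fewer samples. In UCSD-AML1 same-number libraries correlated at -0.10, 0.05 and -0.13, and no untreated library correlated best with its own number. In ELF-153 the same-number correlations were 0.30, 0.41 and -0.10. Untreated replicates 1 and 2 correlated best with their own numbers there (-0.34 and -0.40 across them), and replicate 3 did not. The mitochondrial share also had the same replicate order in both ELF-153 groups. Whether replicate numbers pair the ELF-153 libraries is therefore undecided. With a replicate block 27 ERVL families were higher in UCSD-AML1, 21 in ELF-153, and 6 had a smaller DAC effect in ELF-153. Families under about 60 reads per library limit the precision.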

Other observations

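HERV16-int, the internal family that shares its number with the LTR16 families but not the name prefix that defined the 35, was looked at after the values were seen. It had 118, 143 and 155 scaled reads in UCSD-AML1 without DAC and 477, 393 and 481 with it. In ELF-153 it had 249, 593 and 416 and then 744, 1260 and 846 scaled reads. Treated and untreated libraries did not overlap in either line, with log2 changes of 1.69 ± 0.29 and 1.23 ± 0.29 (limma adjusted p = 0.000878 and 0.0111). The difference between these effects was -0.46 ± 0.40 (limma adjusted p = 0.503). Untreated ELF-153 held more than untreated UCSD-AML1, by 1.51 ± 0.29 (limma adjusted p = 0.00199).

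LTR40A1, also outside the 35 and chosen after its values were seen, differed between the lines in its DAC effect. It had 159, 133 and 130 scaled reads in UCSD-AML1 without DAC and 310, 285 and 297 with it. In ELF-153 it had 290, 346 and 243 and then 200, 227 and 212. Treated libraries were all higher in UCSD-AML1 and all lower in ELF-153. The rise in UCSD-AML1 passed (log2 change 1.08 ± 0.17, limma adjusted p = 0.000465). The fall in ELF-153 did not (-0.45 ± 0.17, limma adjusted p = 0.0715). The effects differed by -1.53 ± 0.24 on the log2 scale (limma adjusted p = 0.00212).

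DPPA3, a germ-line and early embryo gene, was at 0 in all untreated UCSD-AML1 libraries and had 8.85, 14.6 and 4.86 scaled reads after DAC. RFPL4B, a DUX4 target, was at 0 in the untreated libraries of both lines, with 5.9, 1.12 and 0.971 scaled reads in treated UCSD-AML1 and 4.74, 2.62 and 7.83 in treated ELF-153. Both passed limma only where no filter on low values was set (adjusted p = 5.86e-05 for DPPA3 in UCSD-AML1, and 0.0497 and 0.00357 for RFPL4B in UCSD-AML1 and ELF-153).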
